A study of Arabidopsis thaliana with 18 samples.

Results

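The difference between the 10 d and the 5 d effect of the synthetic auxin 2,4-D was measured in 12 of the 18 RNA-seq libraries of a study of somatic embryogenesis in *Arabidopsis thaliana* Col-0. All groups were immature zygotic embryo (IZE) explants. The groups were EA at 10 d and E0 at 10 d, and EA at 5 d and E0 at 5 d, with 3 biological replicates each (a, b and c). EA cultures carried 2,4-D at 5 µM. E0 had no inducer, and explants on it grow into seedlings. Each replicate pooled many explants. The other 6 libraries come from ET, a medium with 1 µM of the histone deacetylase inhibitor trichostatin A and no 2,4-D. They shared the fit and are compared only where named. The 12 libraries were chosen by medium and day. Groups and gene lists were chosen with earlier results of these data known. Of 34218 genes in the count table, 23539 had enough counts to be tested.

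Auxin acts by bringing the Aux/IAA repressors to the TIR1/AFB receptors, which leads to their degradation and frees the auxin response factors (ARFs) to regulate their targets. Targets include the *Aux/IAA* genes themselves, the *GH3* enzymes that conjugate auxin, and *LBD* factors of lateral root and callus formation. 2,4-D acts through the same receptors and is widely used to induce somatic embryos. A control explant meanwhile grows into a seedling, so a change in the EA to E0 ratio between days may come from either medium. For this reason each gene was read in both media: the day difference is the log2 ratio of EA to E0 at 10 d minus that at 5 d. A positive day difference is called shifted up here, and a negative day difference shifted down. Log2 values are given ± SE, and a value with an adjusted p in brackets is the day difference in the edgeR fit. In pooled explants, fewer cells of a type and less RNA per cell cannot be told apart.

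Library totals lay between 41064566 and 57139115 counts in EA 10 d, between 15587778 and 58364735 in E0 10 d, between 29261617 and 42930401 in EA 5 d and between 9098758 and 45361683 in E0 5 d. E0 5 d b, E0 5 d c and E0 10 d b were thus the shallow ones. The chloroplast genome took 4.05 to 5.46% of the counts in EA 10 d, 4.88 to 8.10% in E0 10 d, 5.28 to 6.22% in EA 5 d and 5.15 to 6.55% in E0 5 d. Structural RNA genes took 4.09% in EA 10 d c and at most 0.645% in the other 11 libraries. The storage protein gene *CRC* (AT4G28520) had the most counts in every E0 library. Its share was 5.73 to 9.98% in E0 10 d and 3.51 to 6.47% in E0 5 d. The 4 embryo markers (*LEC1*, *LEC2*, *FUS3* and *NF-YB6*) were detected in all groups. Levels are in CPM, the count scaled to a common library size by TMM. These markers summed to 133 to 183 CPM in EA 10 d, 67.3 to 73.5 CPM in E0 10 d, 273 to 304 CPM in EA 5 d and 205 to 255 CPM in E0 5 d. Most of this sum was *FUS3* and *NF-YB6*. In EA *LEC1* went the other way, at 2.26 to 7.16 CPM at 10 d and 0.705 to 2.31 CPM at 5 d. The 4 shoot and leaf markers summed to 523 to 815 CPM in EA 10 d, 1020 to 1710 CPM in E0 10 d, 642 to 886 CPM in EA 5 d and 938 to 1170 CPM in E0 5 d. The 4 root markers summed to 141 to 234 CPM in EA 10 d, 101 to 123 CPM in E0 10 d, 160 to 240 CPM in EA 5 d and 144 to 164 CPM in E0 5 d. Of these, *SHR* was called higher in EA than in E0 on both days and the other 3 lower, and *CASP1* was at 0 to 0.85 CPM in EA 10 d, 47.3 to 62.9 CPM in E0 10 d, 0.0896 to 0.288 CPM in EA 5 d and 49 to 74.6 CPM in E0 5 d. The endosperm markers never summed to more than 3.59 CPM, with *RGE1* and *ALE1*, 2 of 7, at 3 counts or fewer in each of the 12 libraries. The pollen and tapetum markers never summed to more than 0.664 CPM, with *MS1*, *DYT1* and *ATA7* of 6 at 3 counts or fewer in each library. The seed coat markers summed to 53.1 to 75.6 CPM in EA 10 d, 74.9 to 94.4 CPM in E0 10 d, 61.1 to 66.1 CPM in EA 5 d and 91.8 to 95.5 CPM in E0 5 d, with *TT1* of 8 at 3 counts or fewer in each library. Nearly all of the seed coat sum came from *MUM4*, at 52 to 87 CPM, and *TTG2*, at 0.702 to 16.8 CPM over the 12 libraries. No other seed coat marker was above 0.617 CPM in any of them. These shares and sums moved with medium and day, and their part in the results below was not tested.

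The 2,4-D effect depended on the day for 2074 genes, 8.81% of those tested, at an adjusted p under 0.05 in edgeR's quasi-likelihood test. Of these, 999 were shifted up (4.24% of the genes tested) and 1075 were shifted down (4.57%). The size was large for most of them, with a median absolute day difference of 2.04 on the log2 scale and 1822 genes at 1 or more. For 163 of them a group held at most 3 counts in each library, and with those groups set to that floor the median was 1.95. The EA effect itself was called for 49.2% of the genes tested at 10 d (11589) and for 39.8% at 5 d (9368). Most day-dependent genes lost or gained an effect, or kept its direction at another size. In 295 of them EA was higher than E0 at 10 d and not called at 5 d, and in 563 it was lower at 10 d and not called at 5 d. In 161 EA was higher at 5 d and not called at 10 d, and in 242 it was lower at 5 d and not called at 10 d. A further 646 had the same direction on both days, made up of 182 higher and 464 lower in EA. The effect was called in opposite directions on the days in 158 genes, 84 higher in EA at 10 d and lower at 5 d, and 74 lower at 10 d and higher at 5 d. In the other 9 genes EA and E0 were called different on neither day.

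Both media moved, and E0 alone moved in more of these genes than EA alone. In EA 1847 genes were called higher and 1225 lower at 10 d than at 5 d (13.1% of those tested in all), and in E0 2454 were called higher and 1672 lower (17.5%). Among the 2074 day-dependent genes, E0 alone was called as changed in 936, of which 660 were higher and 276 lower at 10 d than at 5 d. EA alone was called in 702, of which 490 were higher and 212 lower at 10 d. Both were called in opposite directions in 197 and in the same direction in 67, and neither was called in 172. The absolute change was larger in EA for 938 genes and larger in E0 for 1136. The direction was uneven as well. Among the genes shifted down the most frequent pattern was a higher seedling level at 10 d. For the 660 genes with E0 alone higher, the median log2 change was -0.273 in EA and 1.89 in E0 (1.79 with groups at the floor set to it). Among the genes shifted up it was a higher EA level at 10 d. For the 490 genes with EA alone higher, the medians were 1.90 in EA (1.78 with groups at the floor set to it) and -0.191 in E0. A medium that was not called is not thereby shown to be constant.

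**Figure D1:**
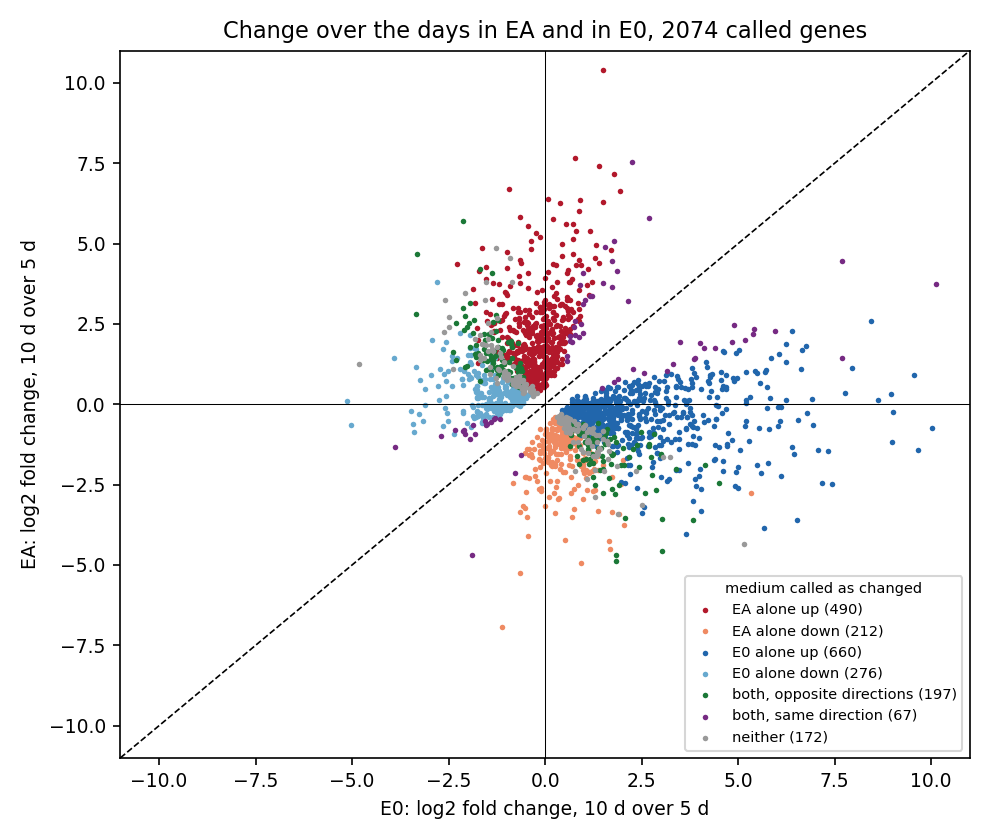
Log2 fold change of 10 d over 5 d in EA (vertical) against the same in E0 (horizontal) for the 2074 day-dependent genes, coloured by which medium was called as changed, where the dashed line marks equal change. The 490 genes of EA alone up lie along the upper vertical axis and the 660 of E0 alone up along the right horizontal axis, while the 67 called in the same direction lie off the dashed line on either side.

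Leaving out single libraries changed the number of genes more than their direction. The count of day-dependent genes was 1339 without E0 5 d c, 1374 without EA 5 d a and 1380 without E0 5 d b, and at most 2371 (without EA 10 d a). E0 alone held 548 genes without E0 5 d c, 600 without E0 5 d b and 607 without E0 10 d c, and EA alone held 399 without EA 5 d a and 429 without EA 10 d c. E0 alone outnumbered EA alone in each of the 12 fits that left out a library, by the least without E0 5 d c, where E0 alone held 548 and EA alone 537. With the 3 shallow libraries left out together, a choice made after the data were seen that leaves a single E0 5 d library, 296 genes were called, and there EA alone (159) outnumbered E0 alone (103).

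The genes shifted up with the smallest p were mostly ones that stood below the seedling level in EA at 5 d and higher in EA at 10 d. *IAA28* (AT5G25890), an Aux/IAA repressor of lateral root initiation, had the smallest p of all genes tested. *IAA28* was at 17.2, 17.5 and 17.4 CPM in EA 10 d and 35.8, 43.96 and 41.4 CPM in E0 10 d. At 5 d *IAA28* was at 4.999, 4.67 and 4.37 CPM in EA and 60.4, 74.9 and 61.6 CPM in E0. The EA libraries of the days did not overlap, all of them lay below all E0 libraries, and the gap was wider at 5 d. Its log2 change between the days was 1.89 ± 0.15 in EA and -0.70 ± 0.14 in E0, a day difference of 2.59 ± 0.20, adjusted p = 1.69e-05. *LAX3* (AT1G77690), an auxin influx carrier, was at 5.44, 9.32 and 10.7 CPM in EA 10 d and 38.3, 18.7 and 32.6 CPM in E0 10 d. At 5 d *LAX3* was at 0.128, 0.228 and 0.0896 CPM in EA and 26.5, 26.7 and 24.8 CPM in E0. EA 5 d was almost without its transcript, while the E0 libraries of the days overlapped. *LAX3* had a day difference of 5.57 ± 0.75, adjusted p = 0.000443, with a change of 5.77 ± 0.61 in EA and 0.20 ± 0.44 in E0. *UPB1* (AT2G47270), a bHLH factor that controls root peroxidases, was at 1.998, 3.303 and 4.66 CPM in EA 10 d and 6.84, 8.63 and 7.498 CPM in E0 10 d. At 5 d *UPB1* was at 0.128, 0.415 and 0.515 CPM in EA and 24.6, 31.4 and 31.9 CPM in E0, so that EA was higher and E0 lower at 10 d than at 5 d. *UPB1* had a day difference of 5.10 ± 0.66, adjusted p = 0.000359.

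In *ATBETAFRUCT4*, *TPS8* and *XTH11* the change over the days was called in EA alone. *ATBETAFRUCT4* (AT1G12240), a vacuolar invertase, was at 7.13, 7.59 and 9.62 CPM in EA 10 d and 63.2, 52.4 and 49.7 CPM in E0 10 d. At 5 d *ATBETAFRUCT4* was at 1.12, 1.83 and 1.12 CPM in EA and 83.2, 90.3 and 61.9 CPM in E0. EA lay below E0 on both days, and the EA libraries of the days did not overlap. *ATBETAFRUCT4* had a day difference of 3.08 ± 0.35, adjusted p = 0.000154, with a change of 2.56 ± 0.26 in EA and -0.51 ± 0.23 in E0. *TPS8* (AT1G70290), of the trehalose-phosphate synthase family, was at 14.7, 8.51 and 12.8 CPM in EA 10 d and 27.4, 30.3 and 34.3 CPM in E0 10 d. At 5 d *TPS8* was at 0.481, 0.996 and 0.896 CPM in EA and 17.6, 16.8 and 22.2 CPM in E0. *TPS8* had a day difference of 3.19 ± 0.39, adjusted p = 0.00028, with a called change in EA (3.89 ± 0.30) and an uncalled change in E0 (0.71 ± 0.26). *XTH11* (AT3G48580), a xyloglucan-modifying enzyme of the wall, was at 34.2, 15.5 and 30.5 CPM in EA 10 d and 0.536, 0.803 and 0.611 CPM in E0 10 d. At 5 d *XTH11* was at 0.994, 2.51 and 0.717 CPM in EA and 1.05, 1.52 and 1.32 CPM in E0. It was high in EA 10 d and alike low in the other 3 groups, with a day difference of 5.22 ± 0.76, adjusted p = 0.000718.

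In 3 of the 8 genes shifted up with the smallest p the effect of 2,4-D turned round. *OST1* (AT4G33950), a SnRK2 kinase of abscisic acid signalling, was at 29.8, 36.1 and 40.7 CPM in EA 10 d and 16.7, 19.6 and 20.22 CPM in E0 10 d. At 5 d *OST1* was at 8.59, 8.37 and 6.47 CPM in EA and 18.9, 16.7 and 19.6 CPM in E0. EA stood above E0 at 10 d and below it at 5 d, and no library of EA overlapped with E0 of the same day, while the E0 libraries of the days overlapped. The log2 ratio of EA to E0 was 0.92 ± 0.16 at 10 d and -1.24 ± 0.17 at 5 d, a day difference of 2.15 ± 0.23, adjusted p = 0.000116. *CRY3* (AT5G24850), a cryptochrome of the organelles, was at 31.7, 24.5 and 35.5 CPM in EA 10 d and 23.6, 21.4 and 23.7 CPM in E0 10 d. At 5 d *CRY3* was at 9.999, 8.93 and 10.1 CPM in EA and 22.1, 24.7 and 21.8 CPM in E0. EA moved (1.66 ± 0.15) and E0 did not pass the test (0.00 ± 0.15), and the day difference was 1.66 ± 0.21, adjusted p = 0.000342. *CYP78A5* (AT1G13710), a cytochrome P450 that promotes organ growth, was at 11.7, 11.8 and 12.6 CPM in EA 10 d and 6.73, 6.89 and 6.17 CPM in E0 10 d. At 5 d *CYP78A5* was at 4.33, 4.94 and 6.74 CPM in EA and 24.8, 27.3 and 31.5 CPM in E0. Here both media moved, EA by 1.17 ± 0.21 and E0 by -2.08 ± 0.22, for a day difference of 3.25 ± 0.31, adjusted p = 6.37e-05. *ADS1* (AT1G06080), a fatty acid desaturase homolog, was at 156, 168 and 309 CPM in EA 10 d and 33.1, 24.2 and 32.6 CPM in E0 10 d. At 5 d *ADS1* was at 199.9, 158 and 178 CPM in EA and 174, 155 and 204 CPM in E0, so that E0 10 d alone stood apart and only the E0 change was called. *ADS1* had a day difference of 2.81 ± 0.35, adjusted p = 0.000342.

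**Figure D2:**
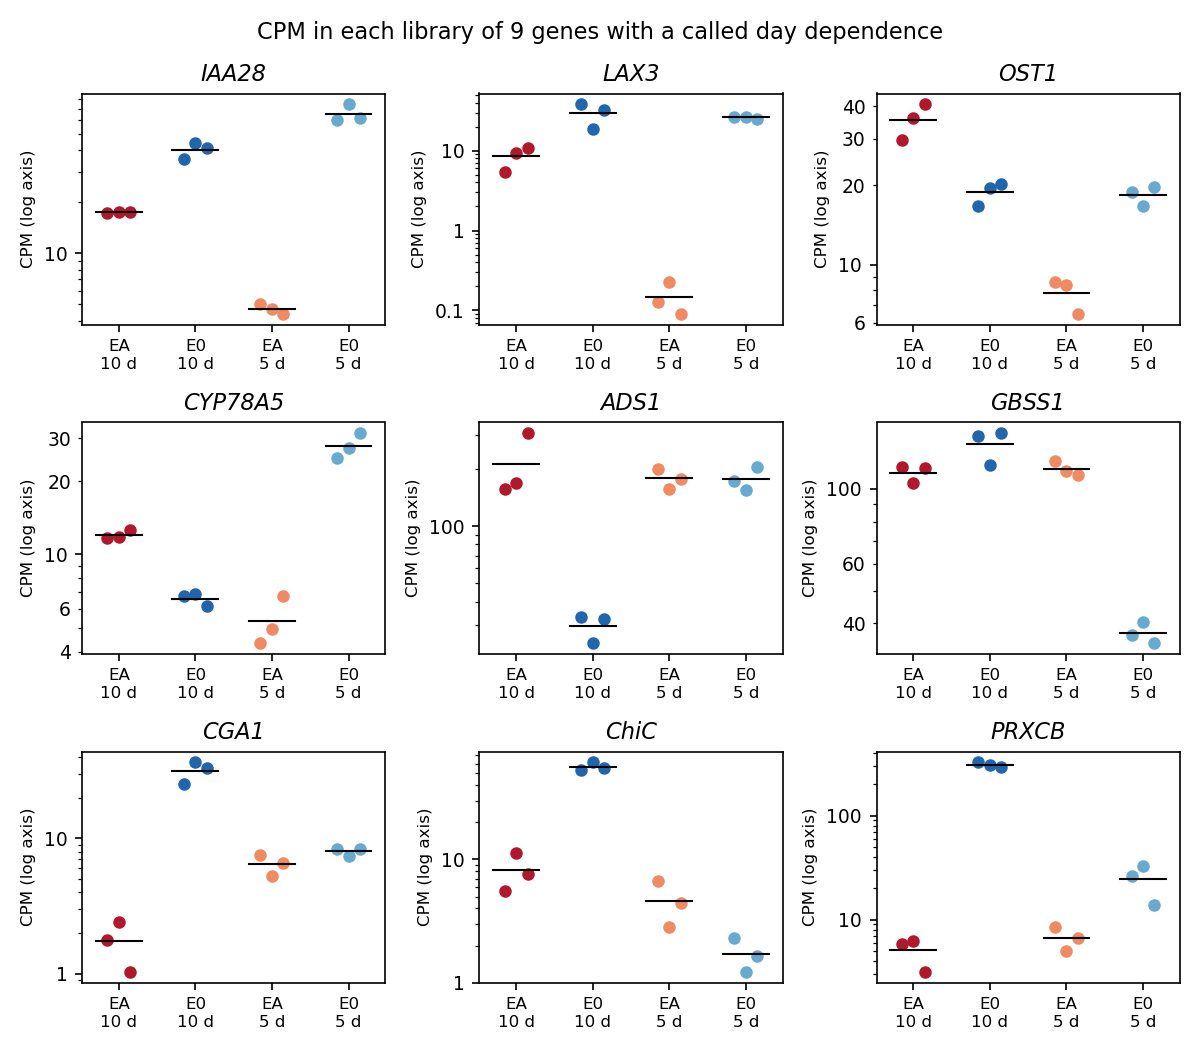
CPM after TMM scaling (log axis, its own range in each panel) in each of the 3 libraries (points) and their mean (line) in EA 10 d, E0 10 d, EA 5 d and E0 5 d for 9 genes. EA 5 d is lowest in *LAX3* and *OST1*, and E0 5 d in *GBSS1*. E0 10 d is lowest in *ADS1* and highest in *CGA1*, *ChiC* and *PRXCB*. EA 10 d is highest in *OST1* and lowest in *CGA1*.

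The genes shifted down with the smallest p were mainly ones that were high in 10 d seedlings and not in EA. *PRXCB* (AT3G49120), a cell wall peroxidase, was at 5.87, 6.29 and 3.11 CPM in EA 10 d and 329, 309 and 293 CPM in E0 10 d. At 5 d *PRXCB* was at 8.396, 5.002 and 6.61 CPM in EA and 26.6, 32.8 and 13.7 CPM in E0. The EA libraries of the days overlapped, while E0 10 d lay far above E0 5 d. Of its exonic 76-base stretches, 3.85% recur elsewhere in the genome. The change was -0.38 ± 0.31 in EA and 3.67 ± 0.33 in E0, a day difference of -4.05 ± 0.44, adjusted p = 0.000116. *TGG2* (AT5G25980), a myrosinase of glucosinolate breakdown, was at 0.114, 0.139 and 0.117 CPM in EA 10 d and 25.6, 18.9 and 27.2 CPM in E0 10 d. At 5 d *TGG2* was at 0.160, 0.291 and 0.112 CPM in EA and 1.81, 2.12 and 1.32 CPM in E0. *TGG2* had a day difference of -4.38 ± 0.48, adjusted p = 0.000116. *MLP328* (AT2G01520), of the major latex protein family, was at 0, 0.0791 and 0.0468 CPM in EA 10 d and 85.7, 90.9 and 89.8 CPM in E0 10 d. At 5 d *MLP328* was at 0.128, 0.166 and 0.112 CPM in EA and 4.37, 4.65 and 3.401 CPM in E0, with a day difference of -6.13 ± 0.74, adjusted p = 0.00028. In both genes EA stayed close to 0 on the 2 days and all of the called change was in E0. *HTH* (AT1G72970), an oxidoreductase needed to keep organ surfaces apart, was at 9.37, 12.01 and 10.7 CPM in EA 10 d and 99.6, 73.5 and 107 CPM in E0 10 d. At 5 d *HTH* was at 9.65, 11.8 and 11.1 CPM in EA and 16.6, 18.4 and 18.9 CPM in E0. Its EA libraries overlapped between the days, and its day difference was -2.41 ± 0.29, adjusted p = 0.000275.

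*CA1* (AT3G01500), the main chloroplast carbonic anhydrase, was at 0.0325, 0.237 and 0.117 CPM in EA 10 d and 69.6, 33.7 and 28.9 CPM in E0 10 d. At 5 d *CA1* was at 0.352, 0.291 and 0.224 CPM in EA and 0.0713, 0.101 and 0.110 CPM in E0. All 3 E0 5 d libraries held at most 3 counts, so E0 10 d was at least 187-fold higher than E0 5 d (floor of 3 counts, averaged over the group). The gene lies partly under a neighbour on the same strand, which covers 10.5% of its exon bases. *MRN1* (AT5G42600), marneral synthase of triterpene metabolism, was at 0, 0 and 0 CPM in EA 10 d and 11.4, 41.9 and 5.48 CPM in E0 10 d. At 5 d *MRN1* was at 0.0321, 0.0415 and 0.0448 CPM in EA and 0.166, 0.405 and 0.110 CPM in E0. It was at 0 in EA 10 d, and E0 10 d was at least 330-fold higher than EA 10 d, or at least 142-fold without E0 10 d b. Its E0 10 d libraries spread widely, its adjusted p was 0.0126, and the call was lost when all libraries were thinned to the smallest total.

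The other 3 of the 8 genes with the smallest p shifted down were *GBSS1*, *CGA1* and *ChiC*. *GBSS1* (AT1G32900), the granule-bound enzyme that makes amylose, was at 116, 104 and 115 CPM in EA 10 d and 143, 118 and 146 CPM in E0 10 d. At 5 d *GBSS1* was at 121, 113 and 110.3 CPM in EA and 37, 40.2 and 34.9 CPM in E0. E0 5 d alone was low, and the EA libraries of the days overlapped. The log2 ratio of EA to E0 was -0.28 ± 0.14 at 10 d, which was not called, and 1.62 ± 0.14 at 5 d, a day difference of -1.90 ± 0.20, adjusted p = 9.7e-05. *CGA1* (AT4G26150), a GATA factor of chloroplast development, was at 1.79, 2.43 and 1.03 CPM in EA 10 d and 25.3, 36.6 and 32.9 CPM in E0 10 d. At 5 d *CGA1* was at 7.59, 5.25 and 6.59 CPM in EA and 8.34, 7.38 and 8.34 CPM in E0. Both media moved, EA by -1.88 ± 0.29 and E0 by 1.97 ± 0.29, and the groups did not overlap at 10 d. *CGA1* had a day difference of -3.85 ± 0.41, adjusted p = 9.7e-05. *ChiC* (AT4G19810), a class V chitinase, was at 5.56, 11.2 and 7.67 CPM in EA 10 d and 53.7, 61.8 and 54.9 CPM in E0 10 d. At 5 d *ChiC* was at 6.67, 2.82 and 4.44 CPM in EA and 2.31, 1.21 and 1.65 CPM in E0. EA was above E0 at 5 d and below it at 10 d, with log2 ratios of -2.80 ± 0.32 at 10 d and 1.34 ± 0.34 at 5 d and a day difference of -4.14 ± 0.46, adjusted p = 0.000136.

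Among the 212 genes in which EA alone was lower at 10 d, *CYP76C1* and *DOF6* had the largest day differences that met the rule for named genes. *CYP76C1* (AT2G45560), a cytochrome P450 of monoterpenol metabolism, was at 0.585, 1.32 and 0.562 CPM in EA 10 d and 18.1, 18 and 13.7 CPM in E0 10 d. At 5 d *CYP76C1* was at 3.27, 4.17 and 8.29 CPM in EA and 7.201, 7.18 and 5.92 CPM in E0. Its change was -2.67 ± 0.47 in EA and 1.29 ± 0.43 in E0 (adjusted p = 0.0516), with a day difference of -3.95 ± 0.64, adjusted p = 0.00143. *DOF6* (AT3G45610), a Dof transcription factor, was at 9.24, 3.52 and 2.29 CPM in EA 10 d and 12.1, 6.69 and 10.03 CPM in E0 10 d. At 5 d *DOF6* was at 28.6, 24.02 and 14.5 CPM in EA and 3.47, 5.97 and 3.84 CPM in E0, high in EA 5 d alone. *DOF6* had a day difference of -3.30 ± 0.62, adjusted p = 0.00402. Of the 276 genes in which E0 alone was lower at 10 d, *FLA6* (AT2G20520), a fasciclin-like arabinogalactan protein, was at 0.195, 1.11 and 0.187 CPM in EA 10 d and 10.03, 7.96 and 13.4 CPM in E0 10 d. At 5 d *FLA6* was at 0.0641, 0.145 and 0.0896 CPM in EA and 52.6, 51.8 and 41.4 CPM in E0. *FLA6* had a day difference of 4.42 ± 0.95, adjusted p = 0.00856, and the call was lost with all libraries thinned to the smallest total. *THI2.2*, a thionin and the other gene named in that class, lost its call without EA 5 d a, EA 5 d b or EA 10 d c.

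The promoters of 5 of these genes are shown because each holds a motif searched for and they cover genes in which EA (*LAX3*, *DOF6*) or E0 (*ADS1*, *CA1*, *HTH*) was called. They were picked after the search. The sequences are the 250 bases before the annotated gene start in RefSeq TAIR10.1, written 5′ to 3′ on the gene's strand, with capitals for the motifs TGTCTC and TGTCGG (auxin response elements), CATGCA (RY, bound by B3 factors of the seed) and CACGTG (G-box), found on either strand.
*LAX3*, chr1:29203419-29203668, minus strand: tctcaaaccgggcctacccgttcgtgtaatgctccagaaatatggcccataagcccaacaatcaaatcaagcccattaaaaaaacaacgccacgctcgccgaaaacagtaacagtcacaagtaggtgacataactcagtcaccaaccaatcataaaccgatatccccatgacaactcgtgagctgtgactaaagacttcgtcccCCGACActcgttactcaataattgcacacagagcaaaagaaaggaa
*DOF6*, chr3:16740547-16740796, minus strand: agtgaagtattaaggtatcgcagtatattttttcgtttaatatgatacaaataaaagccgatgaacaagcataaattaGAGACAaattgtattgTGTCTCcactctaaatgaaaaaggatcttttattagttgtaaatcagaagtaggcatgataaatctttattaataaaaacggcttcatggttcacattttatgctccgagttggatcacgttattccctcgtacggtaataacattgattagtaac
*ADS1*, chr1:1843213-1843462, plus strand: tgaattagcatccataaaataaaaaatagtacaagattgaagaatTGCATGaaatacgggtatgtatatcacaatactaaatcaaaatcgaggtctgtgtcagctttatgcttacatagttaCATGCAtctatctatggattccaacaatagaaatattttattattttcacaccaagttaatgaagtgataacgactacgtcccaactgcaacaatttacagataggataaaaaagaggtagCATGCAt
*CA1*, chr3:198665-198914, minus strand: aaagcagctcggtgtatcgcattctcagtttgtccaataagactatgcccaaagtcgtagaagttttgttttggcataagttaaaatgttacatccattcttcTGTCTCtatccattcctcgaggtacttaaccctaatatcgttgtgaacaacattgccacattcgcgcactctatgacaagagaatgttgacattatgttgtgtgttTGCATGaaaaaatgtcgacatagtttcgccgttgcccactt
*HTH*, chr1:27452498-27452747, plus strand: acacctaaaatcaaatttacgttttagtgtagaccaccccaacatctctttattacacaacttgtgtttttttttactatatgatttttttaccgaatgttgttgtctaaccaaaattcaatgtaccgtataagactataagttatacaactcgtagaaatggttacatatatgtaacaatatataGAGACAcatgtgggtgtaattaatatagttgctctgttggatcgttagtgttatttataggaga

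*LAX3* held TGTCGG 46 bases before the start, and *DOF6* TGTCTC at 172 and 156. *ADS1* held the RY motif at 205, 128 and 7, *CA1* TGTCTC at 147 and RY at 41, and *HTH* TGTCTC at 64. Among the genes whose sequence is not shown, *CYP78A5*, *UPB1*, *MRN1* and *THI2.2* held the RY motif. *ATBETAFRUCT4* and *ChiC* held TGTCTC, and *CRY3* held TGTCTC and the G-box. No such motif was in the same window of *IAA28*, *OST1*, *TPS8*, *GBSS1*, *CGA1*, *TGG2*, *PRXCB*, *MLP328*, *XTH11*, *CYP76C1* or *FLA6*. Across the 21879 tested protein-coding genes with such a window, TGTCTC or TGTCGG was in 14.9%, RY in 8.23% and the G-box in 7.38%. Among genes shifted up the shares were 15.8%, 11.2% and 8.55%, and among genes shifted down 18.8%, 11.9% and 7.74%. For the 199 such genes with EA alone lower at 10 d, an auxin motif was in 23.1%, against 15.7% of those with EA alone higher, 17.6% with E0 alone higher and 14.9% with E0 alone lower. These shares are descriptions and were not tested.

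In auxin signalling, single members moved in either direction. Of 28 tested *Aux/IAA* genes, 4 were shifted up and 3 down, against 4.24% and 4.57% of all genes, and their median day difference was -0.0532, against 0.0544 for all genes tested. This median was 0.016 when libraries were thinned to the smallest total. Besides *IAA28*, *IAA14* (AT4G14550), the SOLITARY-ROOT repressor of lateral root formation, averaged 19.3 CPM in EA 10 d, 8.95 in E0 10 d, 7.33 in EA 5 d and 19.4 in E0 5 d. No library of EA overlapped with E0 of the same day, with EA above E0 at 10 d and below it at 5 d, and the day difference was 2.51 ± 0.49, adjusted p = 0.00471. *IAA27* was at 19.2, 18.8 and 21.6 CPM in EA 10 d and 16.4, 10.4 and 10.9 CPM in E0 10 d. At 5 d *IAA27* was at 25.4, 31.5 and 27.1 CPM in EA and 6.61, 6.27 and 4.498 CPM in E0, with EA above E0 on both days and less so at 10 d (-1.60 ± 0.30, adjusted p = 0.00395). *IAA34* was low throughout, at 0.146, 0.257 and 0.164 CPM in EA 10 d and 1.502, 3.08 and 1.49 CPM in E0 10 d. At 5 d *IAA34* was at 0.449, 0.664 and 0.224 CPM in EA and 0.143, 0.202 and 0.110 CPM in E0. E0 10 d alone stood out, with a day difference of -4.93 ± 0.74, adjusted p = 0.000865, and 12.3% of its exon bases lie under a neighbour on the same strand. Of 16 *ARF* genes 2 were called, both shifted down (4.57% of all genes). *ARF11* averaged 0.916 CPM in EA 10 d, 7.19 in E0 10 d, 2.05 in EA 5 d and 3.09 in E0 5 d (-2.38 ± 0.43, adjusted p = 0.00286), and *ARF18* averaged 18.1 CPM in EA 10 d, 15.1 in E0 10 d, 20.6 in EA 5 d and 8.4 in E0 5 d (-1.03 ± 0.25, adjusted p = 0.0158).

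Some auxin-induced genes that stood far above E0 at 5 d did so less at 10 d. *GH3.2* (AT4G37390), which conjugates auxin to amino acids, was at 52.8, 41.04 and 40.9 CPM in EA 10 d and 26.3, 14.1 and 26.02 CPM in E0 10 d. At 5 d *GH3.2* was at 108, 104 and 73.8 CPM in EA and 15.4, 13.7 and 14.04 CPM in E0. All EA libraries lay above all E0 libraries, and EA 10 d lay below EA 5 d. The log2 ratio of EA to E0 was 1.01 ± 0.21 at 10 d and 2.72 ± 0.23 at 5 d, a day difference of -1.71 ± 0.30, adjusted p = 0.00247. *UGT74D1*, an auxin glucosyltransferase, was shifted up (1.22 ± 0.25, adjusted p = 0.00666), but 98.8% of its exon bases lie under an antisense gene and the strand of counting is not given in the sources used here. Of 6 tested *LBD* genes 2 were shifted down and 1 up (4.57% and 4.24% of all genes), with a median of -1.57. This median was -2.47 with thinned libraries and -1.75 with groups at the floor set to it. The member shifted up, *LBD17*, averaged 0.139 CPM in EA 10 d and held at most 3 counts per library in EA 5 d. *LBD17* lost its call in 9 of the fits that left out 1 library. *LBD16* (AT2G42430), which founds lateral roots and callus, was at 40.8, 33.4 and 29.1 CPM in EA 10 d and 29.1, 29.4 and 16.8 CPM in E0 10 d. At 5 d *LBD16* was at 111, 60.2 and 61.7 CPM in EA and 11.4, 9.71 and 11.1 CPM in E0. At 5 d EA was well above E0, and at 10 d the log2 ratio of 0.46 ± 0.27 was not called, for a day difference of -2.39 ± 0.40, adjusted p = 0.00166. *LBD33* averaged 0.605 CPM in EA 10 d, 0.261 in E0 10 d, 3.88 in EA 5 d and 0.0445 in E0 5 d, and EA 5 d was at least 16.5-fold above E0 5 d, where it held at most 3 counts per library. Of 9 *SAUR* genes, small auxin-induced transcripts, *SAUR9* was shifted up, at 1.97, 1.05 and 1.22 CPM in EA 10 d and 0.295, 0.402 and 0.339 CPM in E0 10 d. At 5 d *SAUR9* was at 0.0321, 0.270 and 0.291 CPM in EA and 0.951, 1.52 and 1.98 CPM in E0 (4.82 ± 0.85, adjusted p = 0.00244), and 1 was shifted down. Over all genes the shares were 4.24% up and 4.57% down. The member shifted down, *SAUR63*, lost its call in 8 of the fits that left out 1 library. Of its exon bases 25.6% lie under an antisense gene, and 22.6% of its exonic 76-base stretches recur elsewhere in the genome.

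In auxin synthesis 3 of 14 tested genes were called, all shifted up (4.24% of all genes), with a median of 0.0436 that was -0.0324 when scaled by library totals. *YUC8* (AT4G28720), a flavin monooxygenase of the final step to IAA, was at 44.2, 62.2 and 94.2 CPM in EA 10 d and 4.48, 3.61 and 4.04 CPM in E0 10 d. At 5 d *YUC8* was at 13.2, 18.97 and 21.2 CPM in EA and 7.94, 7.69 and 6.47 CPM in E0. EA 10 d stood above all other groups, and E0 was lower at 10 d than at 5 d by a log2 change of -0.86 ± 0.33 that was not called. *YUC8* had a day difference of 2.77 ± 0.46, adjusted p = 0.00159. *YUC3* (AT1G04610), of the same family, was at 234, 236 and 225 CPM in EA 10 d and 6.97, 7.23 and 7.82 CPM in E0 10 d. At 5 d *YUC3* was at 123, 132 and 133 CPM in EA and 10.7, 11.2 and 11.2 CPM in E0. EA lay above E0 on both days, and more so at 10 d, with log2 ratios of 4.98 ± 0.22 at 10 d and 3.55 ± 0.20 at 5 d (1.42 ± 0.27, adjusted p = 0.00369). Of 14 transport genes 3 were shifted up and 2 down (4.24% and 4.57% of all genes), and 1 was shifted down when any library but E0 5 d a, EA 5 d a or EA 10 d a was left out. With *LAX3*, the efflux carrier gene *ABCB19* (AT3G28860) was shifted up, at 228, 193 and 325 CPM in EA 10 d and 129, 90.2 and 105 CPM in E0 10 d. At 5 d *ABCB19* was at 105, 102 and 136 CPM in EA and 163, 195 and 186 CPM in E0 (1.86 ± 0.33, adjusted p = 0.00245). *LAX1*, an influx carrier, was shifted down and averaged 22.1 CPM in EA 10 d, 11.3 in E0 10 d, 33.7 in EA 5 d and 7.64 in E0 5 d (-1.20 ± 0.29, adjusted p = 0.0162).

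Of 21 tested embryo regulators 3 were called, all shifted up (4.24% of all genes). In EA 3 of the 21 were called lower at 10 d (5.2% of all genes), and in E0 12 were (7.1%). Their median day difference was 0.472. *WOX11* (AT3G03660), a homeobox gene that marks founder cells of new roots, was at 57.4, 62.1 and 90.2 CPM in EA 10 d and 2.12, 3.08 and 2.48 CPM in E0 10 d. At 5 d *WOX11* was at 42.01, 53.4 and 57.8 CPM in EA and 8.65, 7.69 and 9.43 CPM in E0. EA lay above E0 on both days, the EA libraries of the days overlapped, and E0 fell to 2.56 CPM at 10 d, against 8.59 CPM at 5 d. *WOX11* had a day difference of 2.22 ± 0.31, adjusted p = 0.000563. The other members called, *WOX2* and *WOX12*, lost the call in 11 and 15 of the 24 alternatives. The count of members shifted up was 1 without any of E0 10 d b, E0 5 d b, E0 5 d a, EA 5 d a, EA 5 d b, EA 10 d b or EA 10 d c, and 5 without EA 10 d a. *LEC1*, *FUS3* and *BBM*, named here after their values were seen, had day differences of 2.71, 0.75 and 0.61 that did not pass the test (adjusted p = 0.0743, 0.282 and 0.111 in edgeR).

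Of 11 shoot meristem and boundary genes, 4 were shifted up and 1 down (4.24% and 4.57% of all genes), with a median of 0.815 (0.574 with groups at the floor set to it). *CUC2* (AT5G53950), a NAC factor of organ boundaries, was at 2.08, 2.75 and 4.09 CPM in EA 10 d and 0.456, 0.201 and 0.305 CPM in E0 10 d. At 5 d *CUC2* was at 0.833, 0.540 and 1.19 CPM in EA and 1.26, 1.52 and 1.097 CPM in E0. EA 10 d was above and E0 10 d below all libraries of 5 d, and the day difference was 3.73 ± 0.58, adjusted p = 0.00114. *CLV1* (AT1G75820), the receptor kinase that limits the stem cell zone, was shifted down, at 7.73, 9.24 and 9.85 CPM in EA 10 d and 30.7, 23.4 and 29.01 CPM in E0 10 d. At 5 d *CLV1* was at 10.99, 9.94 and 14.1 CPM in EA and 13.4, 14.7 and 15.1 CPM in E0 (-1.33 ± 0.26, adjusted p = 0.00471). The count shifted up was 2 without E0 5 d b, E0 10 d a or EA 10 d c, and 1 without E0 5 d c, E0 10 d c, EA 5 d a or EA 5 d b. Of 15 root meristem genes 2 were shifted up (4.24% of all genes), *BRN1* and *BRN2*, which promote root cap maturation. *BRN1* was at 32.8, 26.4 and 41.5 CPM in EA 10 d and 1.77, 2.74 and 2.14 CPM in E0 10 d. At 5 d *BRN1* was at 9.101, 12.3 and 10.3 CPM in EA and 4.397, 6.88 and 5.38 CPM in E0 (2.99 ± 0.54, adjusted p = 0.00282), and *BRN2* averaged 14.6 CPM in EA 10 d, 1.34 in E0 10 d, 9.74 in EA 5 d and 4.63 in E0 5 d (2.35 ± 0.46, adjusted p = 0.00517).

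Root hair and epidermis genes had the highest share of upward shifts among the lists. Of 21 members, all tested, 10 were shifted up (4.24% of all genes) and 1 down, with a median day difference of 1.95 (1.73 with groups at the floor set to it). EA was called lower than E0 for 20 of the 21 at 10 d and for all 21 at 5 d (25% and 20.8% of all genes), so that a positive day difference is a narrower gap at 10 d in all but *CPC*. In EA 3 members were called higher at 10 d than at 5 d, with a median change of 0.778, and in E0 10 were called lower, with a median change of -1.46. *LRX1* (AT1G12040), a leucine-rich extensin of the root hair wall, was at 2.34, 1.899 and 0.959 CPM in EA 10 d and 18.6, 19.5 and 21.8 CPM in E0 10 d. At 5 d *LRX1* was at 0.352, 1.04 and 0.381 CPM in EA and 65.7, 88.4 and 84.6 CPM in E0. Seedlings had less at 10 d, EA stayed low, and the day difference was 3.51 ± 0.69, adjusted p = 0.0051. *RHS12* (AT3G10710), a root hair specific gene, was at 0.211, 0.811 and 0.819 CPM in EA 10 d and 11.96, 9.84 and 15.8 CPM in E0 10 d. At 5 d *RHS12* was at 0.0641, 0.208 and 0 CPM in EA and 34.1, 49.8 and 50.6 CPM in E0 (4.44 ± 0.85, adjusted p = 0.00451). *EXPA18*, a root hair expansin, averaged 0.753 CPM in EA 10 d, 12.9 in E0 10 d, 0.157 in EA 5 d and 35.4 in E0 5 d (3.65 ± 0.77, adjusted p = 0.00765). *CPC* (AT2G46410), a MYB-type factor that specifies hair cells, differed from these. It was at 10.04, 13.8 and 13.9 CPM in EA 10 d and 5.28, 7.76 and 6.79 CPM in E0 10 d. At 5 d *CPC* was at 5.74, 5.36 and 6.23 CPM in EA and 7.796, 8.899 and 13.7 CPM in E0, with EA above E0 at 10 d and below it at 5 d (1.73 ± 0.32, adjusted p = 0.00326). The member shifted down was *GL2*, which acts against the hair fate, at -0.90 (adjusted p = 0.033 in edgeR, named after its values were seen), and no member was shifted down when any library but EA 10 d b was left out. Without EA 5 d a the number shifted up was 6, without EA 10 d b it was 5, and it was 3 with a test against a log2 difference of 1. All 3 shallow libraries are in E0, where most of these called changes lay. The fit without them leaves a single E0 5 d library, so it cannot decide these calls.

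**Figure D3:**
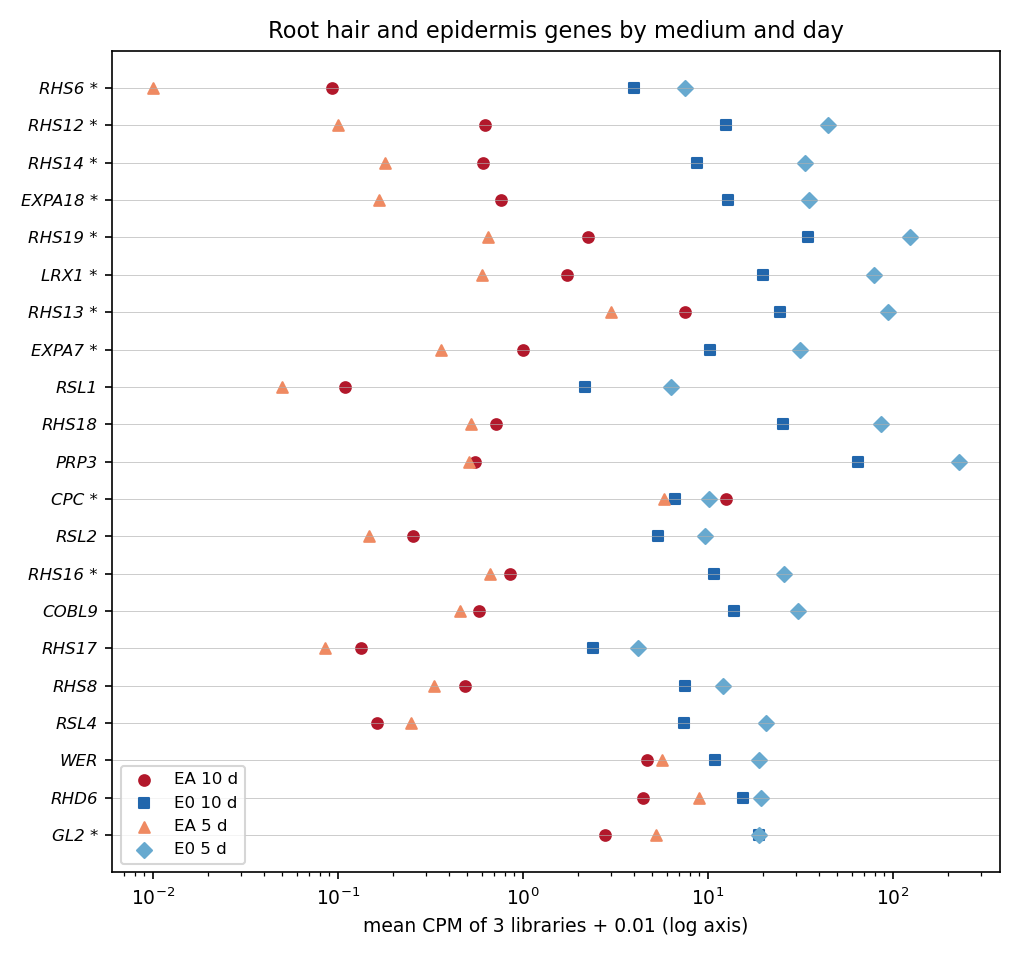
Mean CPM of 3 libraries plus 0.01 (log axis) of the 21 root hair and epidermis genes in EA 10 d, E0 10 d, EA 5 d and E0 5 d, from the highest to the lowest day difference; asterisks mark the 11 genes called. Both E0 groups lie to the right of both EA groups for all members except *CPC*, and E0 10 d lies left of E0 5 d.

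Of 12 tested genes for chlorophyll synthesis and its regulators 4 were called, all shifted down (4.57% of all genes), with a median of -0.791, and this count stayed between 4 and 5 whichever library was left out. They are the GATA factors *CGA1* and *GNC*, the Golden2-like factor *GLK1* and the protochlorophyllide reductase *PORC*. *GLK1* (AT2G20570) was at 5.77, 6.57 and 4.68 CPM in EA 10 d and 22.9, 21.4 and 30.7 CPM in E0 10 d. At 5 d *GLK1* was at 8.396, 11.5 and 14.5 CPM in EA and 11.7, 15.3 and 8.56 CPM in E0, with EA and E0 overlapping at 5 d and apart at 10 d (-2.09 ± 0.36, adjusted p = 0.00213). *GNC* (AT5G56860) was at 1.02, 1.39 and 0.328 CPM in EA 10 d and 13.4, 13.1 and 13.9 CPM in E0 10 d. At 5 d *GNC* was at 1.83, 1.27 and 1.098 CPM in EA and 3.52, 4.25 and 3.29 CPM in E0 (-2.46 ± 0.56, adjusted p = 0.0114). *PORC* (AT1G03630) was at 11.7, 11.8 and 9.52 CPM in EA 10 d and 37.7, 32.1 and 43.97 CPM in E0 10 d. At 5 d *PORC* was at 7.21, 7.26 and 8.07 CPM in EA and 5.44, 6.07 and 4.39 CPM in E0 (-2.28 ± 0.35, adjusted p = 0.00109). Of 43 nuclear genes of the photosystems and Rubisco, 4 were called, all shifted down, where 8.81% of all genes were called and 4.57% shifted down. Their median change was 0.165 in EA and 0.423 in E0, and E0 was called higher at 10 d for 11 (10.4% of all genes). *RCA* (AT2G39730), Rubisco activase, was at 80.3, 54.9 and 62.9 CPM in EA 10 d and 458, 309 and 402 CPM in E0 10 d. At 5 d *RCA* was at 41.02, 49.1 and 39.5 CPM in EA and 57.5, 99.01 and 88.4 CPM in E0 (-1.65 ± 0.31, adjusted p = 0.00383). *LHCB1.1*, a light-harvesting protein gene that is also a shoot marker, was at 127, 126 and 89.3 CPM in EA 10 d and 553, 252 and 576 CPM in E0 10 d. At 5 d *LHCB1.1* was at 39.2, 52.9 and 99.5 CPM in EA and 33.3, 30.6 and 28.1 CPM in E0 (-3.07 ± 0.55, adjusted p = 0.00287), and 10.2% of its exonic 76-base stretches recur elsewhere in the genome. The photosystem count was 2 without E0 5 d b, E0 5 d c, E0 10 d a or EA 5 d c, and 8 when EA and E0 were fitted without ET. Of 114 genes of the chloroplast genome 2 were shifted down (4.57% of all genes), and this was 0 without E0 5 d b, E0 10 d a or EA 10 d c, 1 without E0 5 d c, E0 10 d c, any EA 5 d library or EA 10 d b, and 8 without EA 10 d a.

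Flavonoid and anthocyanin genes had the lowest median of the lists plotted, at -2.20. Of 12 tested members 4 were called, all shifted down (4.57% of all genes). The median change was -0.261 in EA and 1.85 in E0, and E0 was called higher at 10 d for 7 members (10.4% of all genes). *DFR* (AT5G42800), the reductase at the entry to anthocyanins, was at 0.179, 0.613 and 0.234 CPM in EA 10 d and 83.5, 86.99 and 116 CPM in E0 10 d. At 5 d *DFR* was at 0.0961, 0.291 and 0.157 CPM in EA and 3.59, 4.25 and 1.86 CPM in E0. *DFR* had a day difference of -4.04 ± 0.98, adjusted p = 0.0175, and without EA 5 d b the adjusted p was 0.129. *LDOX*, the next enzyme, averaged 0.571 CPM in EA 10 d, 111 in E0 10 d, 0.349 in EA 5 d and 3.77 in E0 5 d (-4.19 ± 0.99, adjusted p = 0.0155), and without EA 5 d b its adjusted p was 0.0567. The number shifted down was 2 without EA 5 d a, 1 without EA 5 d b and 2 with thinned libraries. It was 0 with a test against a log2 difference of 1.

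Cell wall enzymes moved both ways. Of 53 tested expansins, xyloglucan-modifying enzymes and cellulose synthases, 10 were shifted up and 4 down, against 4.24% and 4.57% of all genes, with a median of 0.108 that was -0.0335 with thinned libraries. The largest downward shift was *XTH25* (AT5G57550), at 52.98, 54.5 and 54.6 CPM in EA 10 d and 128, 253 and 74.4 CPM in E0 10 d. At 5 d *XTH25* was at 68.1, 63.7 and 62.02 CPM in EA and 9.22, 5.66 and 3.29 CPM in E0 (-4.84 ± 0.61, adjusted p = 0.000342), where EA was above E0 at 5 d and below it at 10 d. *EXPA9* was at 58.96, 78.4 and 111 CPM in EA 10 d and 52.3, 51.3 and 38.7 CPM in E0 10 d. At 5 d *EXPA9* was at 60.99, 74.1 and 77.2 CPM in EA and 186, 135 and 121 CPM in E0 (1.87 ± 0.35, adjusted p = 0.00413), with E0 alone lower at 10 d. Of the 10 shifted up, *EXPA18* and *EXPA7* are in the root hair list as well. The number shifted up was 6 without E0 10 d b, EA 5 d c or EA 10 d b and 5 without EA 5 d a, and the number shifted down was 2 without E0 5 d b, E0 5 d c, E0 10 d a, E0 10 d c, EA 5 d a, EA 5 d c or EA 10 d c. In the endodermis list of 11, *MYB36*, which directs Casparian strip formation, was the only member called, averaging 1.44 CPM in EA 10 d, 9.72 in E0 10 d, 0.177 in EA 5 d and 9.11 in E0 5 d (2.90 ± 0.65, adjusted p = 0.0111), and the call was lost with thinned libraries. Of 26 xylem and secondary wall genes 14 were called higher at 10 d in EA and 10 in E0 (7.85% and 10.4% of all genes), and their day difference was called for 1, *XCP1*, which lost the call in 19 of 24 alternatives.

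Ethylene, cytokinin and jasmonate genes held some of the clearest single shifts. *ACO1* (AT2G19590), an ACC oxidase that makes ethylene, was at 291, 412 and 563 CPM in EA 10 d and 32.9, 30.9 and 50.2 CPM in E0 10 d. At 5 d *ACO1* was at 65.02, 128 and 82.6 CPM in EA and 109, 84.5 and 120.1 CPM in E0. EA and E0 overlapped at 5 d, and at 10 d EA lay far above E0, with a day difference of 3.65 ± 0.48, adjusted p = 0.000364. *ACO5* (AT1G77330), of the same family, was at 395, 321 and 306 CPM in EA 10 d and 153, 136 and 170.5 CPM in E0 10 d. At 5 d *ACO5* was at 80.9, 146 and 79.2 CPM in EA and 329, 364 and 308 CPM in E0. EA was above E0 at 10 d and below it at 5 d (2.86 ± 0.43, adjusted p = 0.000865). These were the called members of 14 ethylene genes tested, both shifted up (4.24% of all genes). *ARR3*, a type-A response regulator that cytokinin induces, was at 36.9, 46.9 and 93.4 CPM in EA 10 d and 4.53, 5.89 and 4.55 CPM in E0 10 d. At 5 d *ARR3* was at 19.3, 26.6 and 21.5 CPM in EA and 14.97, 15.9 and 14.3 CPM in E0 (2.996 ± 0.53, adjusted p = 0.0025), the only member called of 10 (8.81% of all genes). *LOG1* (AT2G28305), which releases active cytokinin, was at 0.0487, 0.119 and 0.117 CPM in EA 10 d and 7.296, 8.097 and 7.397 CPM in E0 10 d. At 5 d *LOG1* was at 0.224, 0.394 and 0.202 CPM in EA and 0.0713, 0.202 and 0 CPM in E0. It held at most 3 counts per library in E0 5 d, and E0 10 d was at least 32.3-fold higher than E0 5 d. *CKX5*, a cytokinin oxidase, averaged 40.4 CPM in EA 10 d, 5.65 in E0 10 d, 31.9 in EA 5 d and 11.98 in E0 5 d (1.42 ± 0.28, adjusted p = 0.00488), with 28.8% of its exon bases under other genes. Of 22 genes of cytokinin synthesis and breakdown 1 was shifted up and 2 down (4.24% and 4.57% of all genes), and 1 was shifted down when any library but E0 10 d b, EA 5 d c or EA 10 d b was left out. Of 23 jasmonate genes 3 were shifted down and 1 up (4.57% and 4.24% of all genes). *LOX2* (AT3G45140), a chloroplast lipoxygenase of jasmonate synthesis, was at 0.796, 1.05 and 0.538 CPM in EA 10 d and 81.6, 162 and 126 CPM in E0 10 d. At 5 d *LOX2* was at 1.76, 1.204 and 0.762 CPM in EA and 16.7, 15.8 and 6.69 CPM in E0 (-3.83 ± 0.75, adjusted p = 0.00516), and *LOX3* averaged 0.647 CPM in EA 10 d, 5.07 in E0 10 d, 2.09 in EA 5 d and 2.39 in E0 5 d (-2.72 ± 0.51, adjusted p = 0.0039). *JAZ3*, a jasmonate repressor, was shifted up and averaged 10.6 CPM in EA 10 d, 15.98 in E0 10 d, 3.35 in EA 5 d and 18.1 in E0 5 d (1.83 ± 0.36, adjusted p = 0.00503).

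Genes of abscisic acid, salicylic acid and seed reserves had called members in smaller numbers. Of 23 abscisic acid genes 3 were shifted up and 4 down, against 4.24% and 4.57% of all genes. The number up was 1 when any library but E0 5 d a, E0 10 d b, EA 5 d c or EA 10 d b was left out, and the number down was 2 without EA 5 d a and 7 without E0 10 d c. *ABF3* (AT4G34000), a bZIP factor of this hormone, was at 46.3, 22.6 and 48.1 CPM in EA 10 d and 29.2, 38.4 and 29.4 CPM in E0 10 d. At 5 d *ABF3* was at 8.49, 11.5 and 7.66 CPM in EA and 36.2, 46.4 and 47.2 CPM in E0, low in EA 5 d alone (2.499 ± 0.42, adjusted p = 0.0018). *HAI3*, a phosphatase induced by it, averaged 0.183 CPM in EA 10 d, 15.3 in E0 10 d, 0.117 in EA 5 d and 0.231 in E0 5 d (-5.20 ± 1.00, adjusted p = 0.00577), a call lost with thinned libraries. *PBS3*, of salicylic acid synthesis and 1 of 11 genes tested there, averaged 0.177 CPM in EA 10 d, 11.7 in E0 10 d, 0.287 in EA 5 d and 0.266 in E0 5 d (-6.61 ± 1.32, adjusted p = 0.00549), also lost with thinned libraries. Of 13 storage protein and oil body genes 2 were shifted down (4.57% of all genes), and 1 without EA 5 d b. EA was called lower than E0 for 12 of them at 10 d and 9 at 5 d (25% and 20.8% of all genes). *OLEO4* (AT3G27660), an oleosin, was at 654, 651 and 558 CPM in EA 10 d and 3218, 3131 and 2344 CPM in E0 10 d. At 5 d *OLEO4* was at 1942, 1364 and 1042 CPM in EA and 2601, 2596 and 1971 CPM in E0. EA 10 d lay below all other groups, and the day difference was -1.50 ± 0.31, adjusted p = 0.00665. Of 12 LEA genes, 1 was called higher at 10 d in EA and 7 in E0 (7.85% and 10.4% of all genes), and only *RAB18* had a called day difference, lost in 12 of 24 alternatives.

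Nutrient and sugar genes followed. *NAS1* (AT5G04950), a nicotianamine synthase of iron transport, was at 0.0163, 0 and 0 CPM in EA 10 d and 40.3, 29.6 and 30.1 CPM in E0 10 d. At 5 d *NAS1* was at 0.449, 0.291 and 0.157 CPM in EA and 6.23, 13.6 and 8.45 CPM in E0. It held at most 3 counts per library in EA 10 d, where E0 was at least 561-fold higher. It was the only called member of 22 iron deficiency genes, of which 9 were called higher at 10 d in EA and 12 in E0 (7.85% and 10.4% of all genes). *NIA2* (AT1G37130), nitrate reductase, was at 562, 705 and 869 CPM in EA 10 d and 354, 287 and 337 CPM in E0 10 d. At 5 d *NIA2* was at 213, 211 and 219 CPM in EA and 416, 356 and 308 CPM in E0. EA 10 d stood above all other groups (1.87 ± 0.29, adjusted p = 0.00118). *NRT2.1*, a high-affinity nitrate transporter, averaged 2.75 CPM in EA 10 d, 21.1 in E0 10 d, 5.58 in EA 5 d and 7.25 in E0 5 d (-2.55 ± 0.45, adjusted p = 0.00233), with 5.62% of its exonic 76-base stretches repeated elsewhere. *DIN10*, a dark-inducible gene, was shifted up and averaged 17.5 CPM in EA 10 d, 57.6 in E0 10 d, 3.43 in EA 5 d and 51.2 in E0 5 d (2.17 ± 0.44, adjusted p = 0.00634), while *STP4*, a monosaccharide carrier, was shifted down and averaged 10.2 CPM in EA 10 d, 62.6 in E0 10 d, 12.6 in EA 5 d and 36.5 in E0 5 d (-1.08 ± 0.22, adjusted p = 0.00595). Of 8 senescence genes 3 were shifted down (4.57% of all genes), among them *PAO*, of chlorophyll breakdown, averaging 22.5 CPM in EA 10 d, 59.1 in E0 10 d, 30.5 in EA 5 d and 37.8 in E0 5 d (-1.08 ± 0.21, adjusted p = 0.00516). Of 10 heat shock genes 2 were shifted down (4.57% of all genes), and 1 without EA 5 d b, E0 10 d b or E0 5 d a. Of these, *HSP70B* averaged 6.69 CPM in EA 10 d, 37.5 in E0 10 d, 5.798 in EA 5 d and 6.31 in E0 5 d (-2.36 ± 0.50, adjusted p = 0.00747).

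In 3 cell division lists no member had a called day difference, where 8.81% of all genes had one. Of 32 DNA replication genes, EA was called higher than E0 for 29 at 10 d and 27 at 5 d (24.2% and 19% of all genes), and the edgeR day difference was called for 0. At an unadjusted p under 0.05 there were 3, and DESeq2 called 1. Of 24 mitotic cyclins and B-type kinases, EA was called higher for 23 at 10 d and 19 at 5 d, with 0 day differences called by edgeR, 3 at an unadjusted p under 0.05 and 1 by DESeq2. Of 17 core histones the numbers were 0, 3 and 1. Of 9 D-type cyclins 1 was shifted up and 2 down (4.24% and 4.57% of all genes), and 1 was down when any library but EA 10 d b was left out. *CYCD3;1* (AT4G34160), which drives entry into division and responds to cytokinin, was at 65.02, 65.5 and 50.9 CPM in EA 10 d and 44.2, 45.4 and 49.1 CPM in E0 10 d. At 5 d *CYCD3;1* was at 93.5, 100.4 and 98.5 CPM in EA and 31.2, 29.4 and 26 CPM in E0. EA was above E0 on both days, with the days apart in both media, and the gap was smaller at 10 d (-1.36 ± 0.17, adjusted p = 0.000342).

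**Figure D4:**
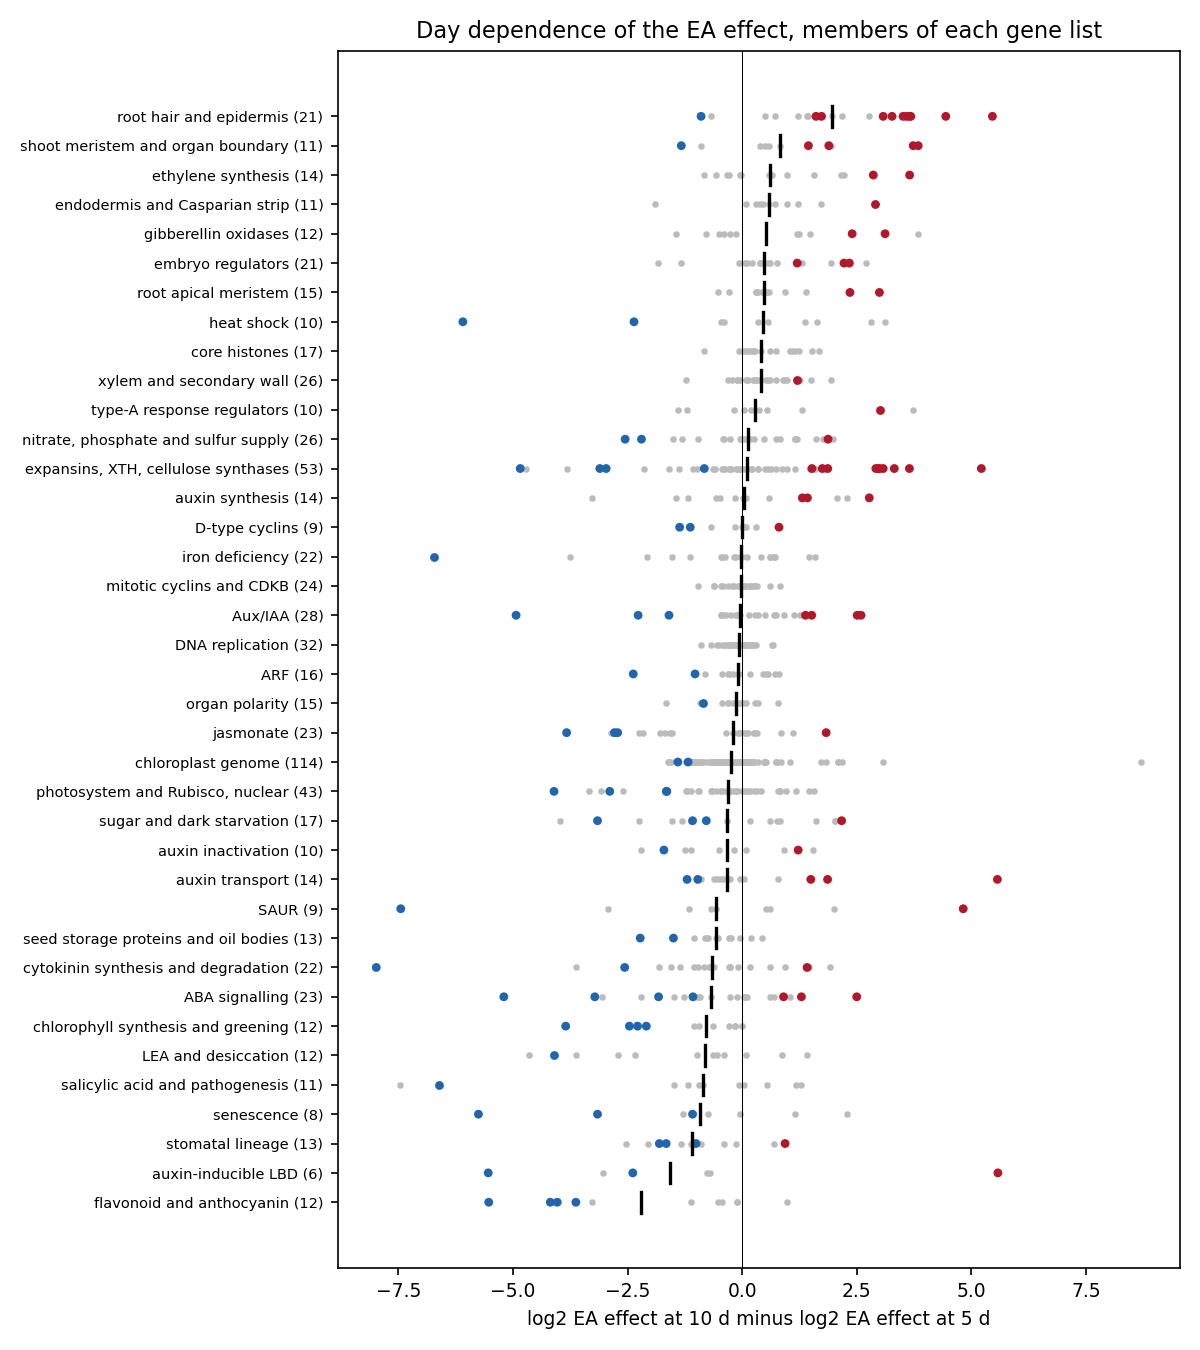
Day difference (log2 EA effect at 10 d minus that at 5 d) of each tested member of 38 gene lists, with the number tested in brackets. Red points were called shifted up, blue points called shifted down, grey points not called, and black bars are medians. Root hair genes have the highest median (1.95) and flavonoid genes the lowest (-2.20) of these lists, and no member of the DNA replication or mitotic lists is coloured.

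The remaining lists are set against 8.81% called over all genes. For organ polarity 1 of 15 was called (*ATHB8*, -0.87 ± 0.20, adjusted p = 0.015). For the stomatal lineage it was 4 of 13, with 3 of them down (1 without E0 10 d c), and for gibberellin oxidases 2 of 12. These 2 lost the call in 12 and 17 of 24 alternatives, and neither was called without E0 5 d a, E0 5 d c, E0 10 d b, E0 10 d c, any EA 5 d library or EA 10 d c, and 1 without E0 5 d b, E0 10 d a or EA 10 d b. For nitrate, phosphate and sulfur supply 3 of 26 were called, 2 of them down (1 without EA 10 d b, EA 5 d b, E0 10 d b, E0 10 d c, E0 5 d a or E0 5 d b). In the stomatal list *HDG2*, an epidermal homeobox gene, averaged 2.84 CPM in EA 10 d, 8.71 in E0 10 d, 6.31 in EA 5 d and 6.21 in E0 5 d (-1.66 ± 0.35, adjusted p = 0.00803), with 26.2% of its exon bases under an antisense gene. Among the marker lists, *TTG2* of the seed coat list, which is also an epidermal factor, was shifted down and averaged 1.13 CPM in EA 10 d, 15.2 in E0 10 d, 2.19 in EA 5 d and 7.95 in E0 5 d (-1.89 ± 0.43, adjusted p = 0.0115). No endosperm, root or embryo marker was called by edgeR, where 1, 0 and 2 had an unadjusted p under 0.05 and DESeq2 called 1, 0 and 2.

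The change between the days was also set against that of ET, which shares the culture time but not 2,4-D. It differed between EA and ET for 3493 genes, 14.8% of those tested. Among the 2074 day-dependent genes it was called different in 39.7% and was not called in 1250. The comparison uses the same EA libraries as the day difference, so the values are given side by side only. For *IAA28* the mean was 17.4 ± 0.160 CPM in EA 10 d and 4.68 ± 0.315 CPM in EA 5 d, against 15.3 ± 1.68 CPM in ET 10 d and 14.7 ± 2.18 CPM in ET 5 d (SD, n = 3 each), an EA change above the ET change by 1.84 ± 0.20 on the log2 scale. *TPS8* averaged 11.99 and 0.791 CPM in EA 10 d and EA 5 d, against 6.08 and 4.104 CPM in ET 10 d and ET 5 d, a difference of 3.33 ± 0.40. *CYP76C1* averaged 0.824 and 5.24 CPM in EA 10 d and EA 5 d, against 19.2 and 2.52 CPM in ET 10 d and ET 5 d, a difference of -5.66 ± 0.66. *GH3.2* averaged 44.9 and 95.2 CPM in EA 10 d and EA 5 d, against 53.2 and 4.95 CPM in ET 10 d and ET 5 d, a difference of -4.49 ± 0.31. For *GBSS1* and *CGA1* the EA change was not called different from the ET change, with differences of 0.41 ± 0.20 and 0.09 ± 0.41 (adjusted p = 0.169 and 0.913).

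By the rule for named genes 113 genes were selected, and all kept the sign of their day difference in the 24 alternatives. The call was kept in every alternative by 33 of them, and was lost at least once by leaving out a single library in 33. The test against a fold threshold (glmTreat) was the larger source of loss, with the call lost in 60 of the 113. The call was lost in a further kind of alternative, such as another scaling or thinning, in 26. The fit without the shallow libraries is among the alternatives, but it leaves a single library in a group and cannot decide these calls. Genes given above with values and no remark kept the call whichever of the 12 libraries was left out. That statement does not cover the fold threshold or the fit without the shallow libraries.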

How the data were processed

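Raw counts per gene were deposited by the authors for 18 libraries, made with a ribosomal RNA-depleted kit, sequenced paired-end, aligned with STAR to TAIR10 and counted from uniquely aligned reads; the counting strand and annotation release are not given in the sources used here. Tools named in the submitters' notes are bcl2fastq, FastQC, MultiQC, STAR and DESeq2. All 18 columns were matched to samples by their labels. Groups, gene lists and the members were chosen with earlier results of these data known.

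The counts were filtered with filterByExpr over the 6 groups, scaled by TMM, and fitted in 1 quasi-likelihood model over all 18 libraries with edgeR 4.0.16 (limma 3.58.1, R 4.3.3), where the authors' own test was DESeq2. Contrasts were EA against E0 on each day, 10 d against 5 d within each medium, the difference between the days, and EA change against ET change. P-values were adjusted by Benjamini-Hochberg over 23539 genes and called under 0.05. SE is the absolute log2 value divided by the root of the F statistic. Bounds against a group at 3 counts or fewer per library use the group's mean floor of 3 counts and cover counting error only, since reads carry no molecular identifiers.

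Named genes were the 8 smallest p in each direction among called protein-coding genes with a symbol and a mean of at least 10 CPM in a group, the 2 largest day differences for EA or E0 alone up or down without overlap between days in that medium, and up to 4 called members per list with the smallest p. Symbols and coordinates are from RefSeq TAIR10.1. Chloroplast genes were taken by locus code; 4 list symbols were not matched. Alternatives were other scalings, DESeq2 1.42.0, no filter, 12 libraries alone, a replicate block, fold thresholds, thinning, each library left out and, added after seeing the data, 2 more.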

Additional observations from a re-analysis of the deposited data

Results flagged for a closer look

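The 2,4-D effect was called in opposite directions on the days in 4 of the 16 genes named for the smallest p, 8 in each direction among called protein-coding genes with a symbol and a mean of at least 10 CPM in a group, by the test of the difference between the days. *CYP78A5* had a day difference of 3.25, *OST1* of 2.15, *CRY3* of 1.66 and *ChiC* of -4.14 on the log2 scale. In *OST1* and *CRY3* EA was called and E0 was not, in *ChiC* E0 was called and EA was not, and in *CYP78A5* both were.

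The change over the days differed between EA and ET in 3493 genes by the test of that difference, and between EA and E0 in 2074. The ET and E0 libraries differ in depth, so these counts do not rank the size of the differences.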

How the results depend on the processing

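In DESeq2's Wald test 1660 genes were shifted down, and with libraries thinned to the smallest total 660 were shifted up. With an absolute log2 difference of at least 1 the EA effect was called for 7278 genes at 10 d and 5792 at 5 d. Tested against a log2 difference of 1 (glmTreat), 497 genes were called (229 up, 268 down), 150 with EA alone and 171 with E0 alone, and the EA effect was called for 4797 genes at 10 d and 3579 at 5 d. Without the 3 shallow libraries, a choice made after the data were seen, 296 genes were called (158 up, 138 down), 159 with EA alone and 103 with E0 alone, and the EA effect was called for 5156 at 5 d. The 5 d E0 arm then has 1 library and is assumed to vary like the other groups. Leaving out 1 library gave 1339 to 2371 called genes, 636 to 1222 up, 667 to 1149 down, 399 to 827 with EA alone and 548 to 1011 with E0 alone. The share shifted up among called genes was 42.2 to 53.4% over the alternatives.

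Replicate letters were not used to pair the libraries in the main fit. Same-letter correlations of deviations between groups were -0.302 to 0.186, with 6 of 18 over 0.1, and 9 of 18 were the best match. Every letter matched best between EA 10 d and EA 5 d (0.0402 to 0.181) and between EA 10 d and E0 10 d (0.0348 to 0.117). No letter did between EA 10 d and E0 5 d (-0.302 to -0.0415). Whether the letters mark pairs is therefore not settled. With the replicate block 2201 genes were called, 733 with EA alone and 1008 with E0 alone.

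The 3 shallow libraries, E0 5 d b, E0 5 d c and E0 10 d b, hold 9098758 to 15587778 counts.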
